A study of Mus musculus with 24 samples.

Results

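The 67 genes described here part every Cre-positive mouse of a mouse hippocampus RNA-seq study from every Cre-negative mouse. They were selected on their levels in CPM, read counts scaled to each library's size after correction by the trimmed mean of M values. A gene was taken when its mean over 24 mice was at least 1 CPM and its level in all 20 Cre-positive mice lay above the highest, or in all 20 below the lowest, of the 4 Cre-negative mice. Of 18255 genes at that mean, 28 (0.153%) were higher and 39 (0.214%) lower in all Cre-positive mice, together 67 (0.367%). Since the rule used this contrast, nothing is read from these shares, and differences from the controls are given as descriptions with no test. Dropping a mouse from the rule can only ease it: the counts higher and lower were 62 and 95 without control A, 45 and 65 without control B, 40 and 86 without control C, 46 and 56 without control D, and 50 and 56 without rapamycin mouse D. With library totals alone as the scale they were 21 and 70, of which 17 and 38 are among the 67. After thinning to the smallest library they were 26 and 35, of which 19 and 25 are among the 67.

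The study examined the weeks in which epilepsy develops after *Tsc1* is deleted in adult mice. All 24 mice, male and female, carried loxP-flanked *Tsc1* alleles (Tsc1 fl/fl), were 16 to 22 weeks old and received 4 tamoxifen injections. The labels give their strain as Tsc1f/f-Tg(Camk2a-CreERT2-) for the 4 controls, called Tsc1-Cre- and taken on day 8 after the start of tamoxifen, and as Tsc1f/f-Tg (Camk2a-CreERT2+) for the 20 others, called Tsc1-Cre+. Of these, 4 mice each were taken on days 4, 6, 8 and 13 without a drug, and 4 on day 13 after daily rapamycin at 10 mg/kg from day 4, the group called Tsc1-Cre+-Rap 4. The transgene makes a tamoxifen-activated Cre recombinase under the *Camk2a* promoter, which is active in excitatory forebrain neurons, so the other cells of the tissue keep *Tsc1*. No control received rapamycin, and no control was taken on days 4, 6 or 13.

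*Tsc1* encodes hamartin, which with tuberin holds back the GTPase Rheb and through it the kinase complex mTORC1. Active mTORC1 raises protein, lipid and nucleotide synthesis and restrains autophagy, rapamycin inhibits it, and its overactivity in neurons after loss of *Tsc1* or *Tsc2* is a known cause of epilepsy. The recombinase used here, CreERT2, is Cre fused to a mutated ligand-binding domain of the estrogen receptor, which tamoxifen metabolites bind.

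Each library was made from ribosomal RNA-depleted, stranded total RNA of the hippocampus. Counted reads per mouse ranged from 28208561 (rapamycin mouse A) to 126435936 (day 13 mouse B), with a median of 55582027. *Camk2a*, a gene of excitatory forebrain neurons and not of the hippocampus alone, had a mean of 1975 CPM over the 24 mice. *Xist*, the X-inactivation RNA of females, was between 639.7 and 1080 CPM in 3 controls and in 1, 1, 3, 2 and 2 mice of the day 4, day 6, day 8, day 13 and rapamycin groups, and under 4 CPM in the rest. The deposited files carry numbers that fall into series, which the labels do not explain and which were taken as a possible sign of cohorts. Of these series, the controls and the day 8 mice share 2 and the other groups share none with the controls, so that for those groups series and group cannot be told apart.

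The targeted gene was among the lower genes. *Tsc1* (ENSMUSG00000026812.16, chromosome 2, 28641228 to 28691167, GRCm38) had levels of 110.4, 103, 106 and 104 CPM in the Tsc1-Cre- mice. Its levels were 78.2, 79.7, 82.0 and 75.9 on day 4, 73.4, 74.6, 69.6 and 73.5 on day 6, 67.4, 76.1, 68.6 and 75.9 on day 8, 56.7, 58.5, 67.6 and 68.1 on day 13, and 66.3, 66.4, 67.8 and 69.0 CPM in Tsc1-Cre+-Rap 4. Every Tsc1-Cre+ mouse was below every control, as the rule demands of a lower gene, and the highest of them, day 4 mouse C, was separated from the lowest control by a factor of 1.26. Mean levels were 106 ± 3.26 in controls, 79.0 ± 2.57 on day 4 and 62.7 ± 5.93 CPM on day 13 (SD, n = 4 each), and the average over the 20 mice was 33.5% below the controls. The counts cover all exons of the gene, those that Cre removes and those it leaves, and in whole tissue fewer cells of a type and less RNA per cell cannot be told apart. Between day 4 and day 13 *Tsc1* had a log2 difference of -0.32 ± 0.08 (SE, 4 of 4 day 13 mice below every day 4 mouse, edgeR quasi-likelihood test with Benjamini-Hochberg adjustment, adjusted p = 0.0216), smaller than the 0.5 required of a called gene. Tsc1-Cre+-Rap 4 and day 13 mice overlapped, with a log2 difference of 0.09 ± 0.09 (SE, edgeR adjusted p = 0.437). Its partner *Tsc2* was at 188 ± 7.08 in controls and 198 ± 19.8 CPM on day 13 (SD, n = 4 each), with overlapping groups.

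**Figure D1:**
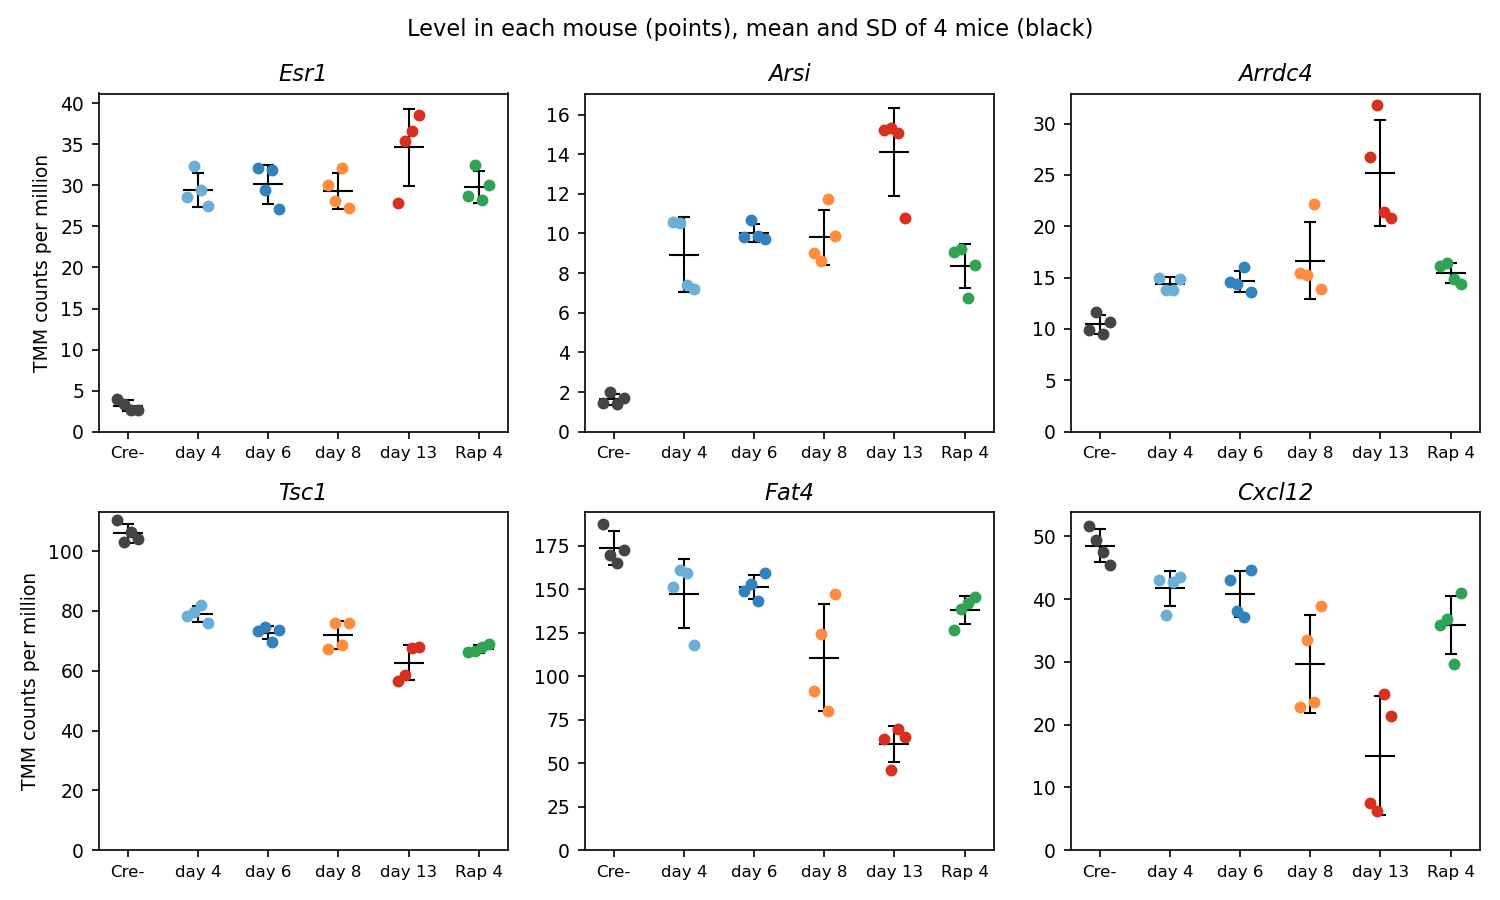
Level of named genes in each of 24 mice, in CPM, by group. Each point is a mouse, black lines are the mean and SD of 4 mice, and for Esr1 and Arsi the points of all 20 Cre-positive mice stand far above the 4 controls.

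The largest difference was in *Esr1* (ENSMUSG00000019768.16, chromosome 10, 4611593 to 5005614), the gene of estrogen receptor alpha, a hormone-activated transcription factor. Its levels were 4.00, 3.34, 2.69 and 2.63 CPM in controls, 28.6, 32.4, 29.4 and 27.5 on day 4 and 32.1, 29.4, 31.9 and 27.1 on day 6. On day 8 they were 30.1, 28.0, 32.1 and 27.2, on day 13 27.8, 35.5, 36.6 and 38.6, and with rapamycin 28.6, 32.5, 28.2 and 30.02 CPM. All 20 Tsc1-Cre+ mice stood at 27.1 to 38.6 CPM, already on day 4, and the lowest of them was 6.79 times the highest control. On average the gene was 9.52-fold higher (log2 3.25). Among the Tsc1-Cre+ groups its level was not shown to differ (edgeR quasi-likelihood F test over the 5 groups, adjusted p = 0.130), with a log2 difference of 0.24 ± 0.11 between day 13 and day 4 (SE, 3 of 4 day 13 mice above every day 4 mouse, edgeR adjusted p = 0.128) and of -0.22 ± 0.11 between rapamycin and day 13 (SE, edgeR adjusted p = 0.149), where 1 day 13 mouse lay below every rapamycin mouse and the other 3 above them. *Esr1* and *Chfr* were the 2 higher genes without a detected difference among these groups. The CreERT2 transgene holds part of an estrogen receptor sequence, and whether reads of the transgene were counted to *Esr1* was not tested. Of 19 other tested genes of estrogen signalling, among them *Esr2*, *Greb1* and the receptor coactivators, 0 were called in the pooled test of Tsc1-Cre+ against Tsc1-Cre- mice (2 at an unadjusted p under 0.05, and 0 called by DESeq2, against 1.37% of all 27110 genes called in that edgeR test). Among the Tsc1-Cre+ groups *Greb1*, *Ctsd* and *Esrrg* were called both between day 13 and day 4 and between rapamycin and day 13. *Rerg* was called in the first of these tests only, *Xbp1* and *Prlr* in the second only. These tests called 14.8% and 21.1% of all genes. Of the 9 other measured genes whose start lies within 500 kb of *Esr1*, 0 were called in the pooled test (2 at an unadjusted p under 0.05, and 0 called by DESeq2, against 1.37% of all 27110 genes called in that edgeR test).

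Next came *Arsi* (ENSMUSG00000036412.5, chromosome 18, 60911780 to 60918561), the gene of arylsulfatase I, an enzyme family that removes sulfate groups. It was at 1.44, 2.01, 1.38 and 1.70 CPM in controls, 10.6, 10.6, 7.39 and 7.20 on day 4, and 9.80, 10.7, 9.85 and 9.71 on day 6. It was at 9.02, 8.62, 11.7 and 9.87 on day 8, 15.2, 15.3, 15.1 and 10.8 on day 13, and 9.05, 9.20, 6.75 and 8.39 CPM with rapamycin. The lowest Tsc1-Cre+ mouse, rapamycin mouse C, was 3.35 times the highest control, and the average difference was 5.87-fold (log2 2.55). It rose from day 4 to day 13 by 0.67 ± 0.17 (log2 ± SE, 4 of 4 day 13 mice above every day 4 mouse, edgeR adjusted p = 0.0201) and was lower with rapamycin than on day 13 by -0.77 ± 0.15 (4 of 4 mice below every day 13 mouse, edgeR adjusted p = 0.00442). The day 13 against day 4 call was lost without day 4 mouse C or D, where log2 differences over all single omissions ranged from 0.58 to 0.78. Rapamycin levels overlapped those of day 4, against which they were not tested, and kept 75.4% of the mean log2 difference seen on day 13. Of 13 other sulfatases and sulfatase-modifying factors tested, 0 were called in the pooled test of Tsc1-Cre+ against Tsc1-Cre- mice (5 at an unadjusted p under 0.05, and 0 called by DESeq2, against 1.37% of all 27110 genes called in that edgeR test). Between day 13 and day 4 *Sulf2* was called (log2 0.67, edgeR adjusted p = 0.0454), against 14.8% of all genes. Between rapamycin and day 13 *Sulf2* (-0.81) and *Arsa* (-0.50) were called (edgeR adjusted p = 0.0193 and 0.00548), against 21.1% of all genes.

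*Arsi* is the neighbour of the gene whose promoter drives the transgene. It ends before *Camk2a* (ENSMUSG00000024617.16, chromosome 18, 60925618 to 60988152) begins and its start lies 13.8 kb from the start of *Camk2a*, on the same strand. *Camk2a* itself, the alpha subunit of a calcium-dependent kinase of excitatory synapses, did not meet the rule. Its levels were 2192, 1830.0, 1852 and 1577 CPM in controls, 2619, 2465, 2301 and 2193 on day 4, 2083, 1995, 2232 and 2182 on day 6, 1848, 2181, 1278 and 1784 on day 8, 1801, 1247, 1953 and 2333 on day 13 and 1767, 2163, 1457 and 2062 CPM with rapamycin. The 4 day 4 mice were above every control, the other groups overlapped the controls, and over the 20 Tsc1-Cre+ mice it ranged from 1247 to 2619 CPM. The pooled difference was 0.10 ± 0.12 (log2 ± SE, edgeR adjusted p = 0.667). Of the 18 measured genes other than *Arsi* within 500 kb of its start, *Camk2a* included, 1 was called in the pooled test, higher: *Slc6a7*, the brain proline transporter, 69.8 kb after the start of *Camk2a* (8 at an unadjusted and 5 at an edgeR adjusted p under 0.05, and 1 called by DESeq2, against 1.37% of all 27110 genes called, and 2014 genes at an adjusted p under 0.05, in that edgeR test). *Slc6a7* was at 57.1, 55.5, 56.3 and 55.8 CPM in controls, 72.2, 74.0, 69.9 and 82.0 on day 4, 114, 118, 118 and 95.5 on day 13, and 75.2, 69.9, 70.3 and 53.9 CPM with rapamycin. It missed the rule through 1 mouse, rapamycin D, which was below all controls, while the other 19 were above them. Its pooled log2 difference was 0.61 ± 0.07 (SE, edgeR adjusted p = 3.50e-05), and it was lower with rapamycin than on day 13 by -0.74 ± 0.11 (4 of 4 mice, edgeR adjusted p = 0.00163). In the pooled edgeR test 0 of 13 genes of the CaM kinase family were called (0 at an unadjusted p under 0.05, and 0 called by DESeq2, against 1.37% of all 27110 genes called in that edgeR test). Whether the transgene carries *Arsi* or other sequence next to *Camk2a*, and whether that bears on its level, was not tested.

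**Figure D2:**
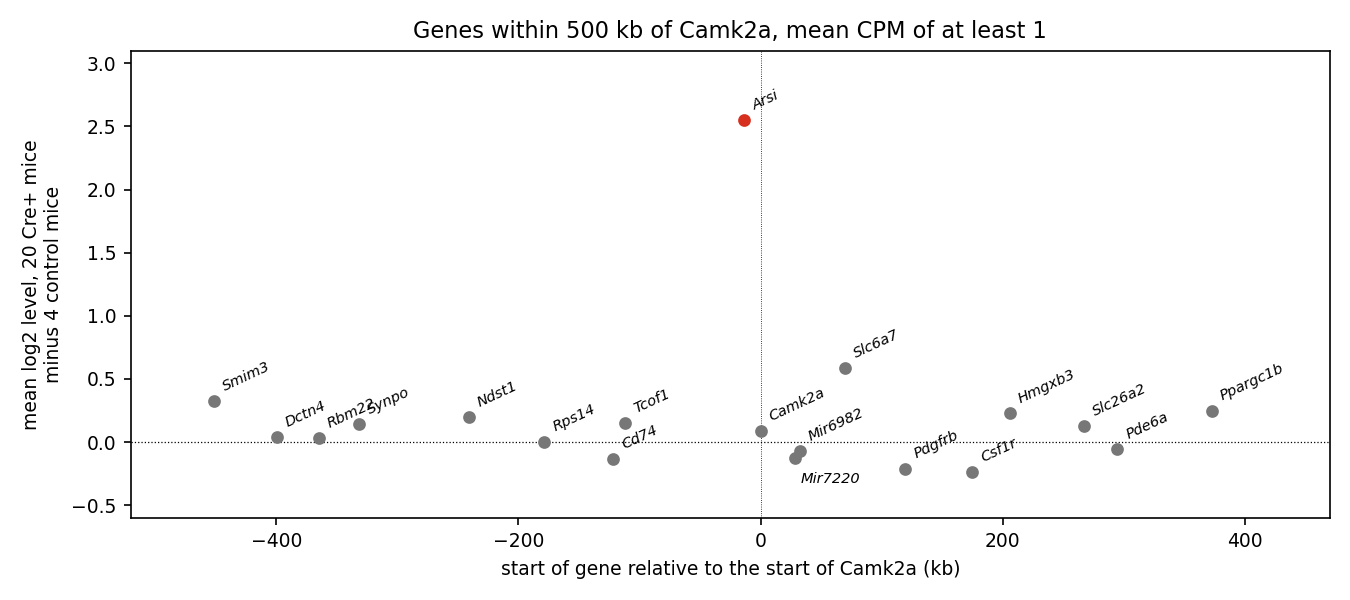
Mean log2 difference of Cre-positive from Cre-negative mice for genes whose start lies within 500 kb of that of Camk2a, against distance in kb. Points are genes, and Arsi, 13.8 kb away, stands above the others.

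Apart from these, the separations were narrow. Only 5 of the 67 genes kept a gap of at least 1.1-fold between the nearest Tsc1-Cre+ mouse and the nearest control: *Esr1*, *Arsi*, *Tsc1*, *Arrdc4* (1.17) and *Hopx* (1.1), while 45 had a gap under 1.05-fold. On average 55 of the 67 differed by less than 1.5-fold, and 4 higher and 15 lower genes differed by more than 0.5 on the log2 scale. The genes just inside the boundary were *Higd1a* (lowest Tsc1-Cre+ mouse 38.8 and highest control 38.8 CPM, a gap of 1.00055-fold) and *Gspt1* (1.00147-fold), and those just outside it *Exog* (0.999942) and *Herpud1* (0.999115). At the minimum mean level, *Birc7* (1.047 CPM) and *Ube2l6* (1.92) were the least abundant genes inside, and *Gm30075* (0.733) and *Naip1* (0.505) lay outside. The controls of these genes were tight, with a median SD of 3.52% of the mean against 7.08% over all 18255 genes, which a rule on the range of 4 controls favours.

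**Figure D3:**
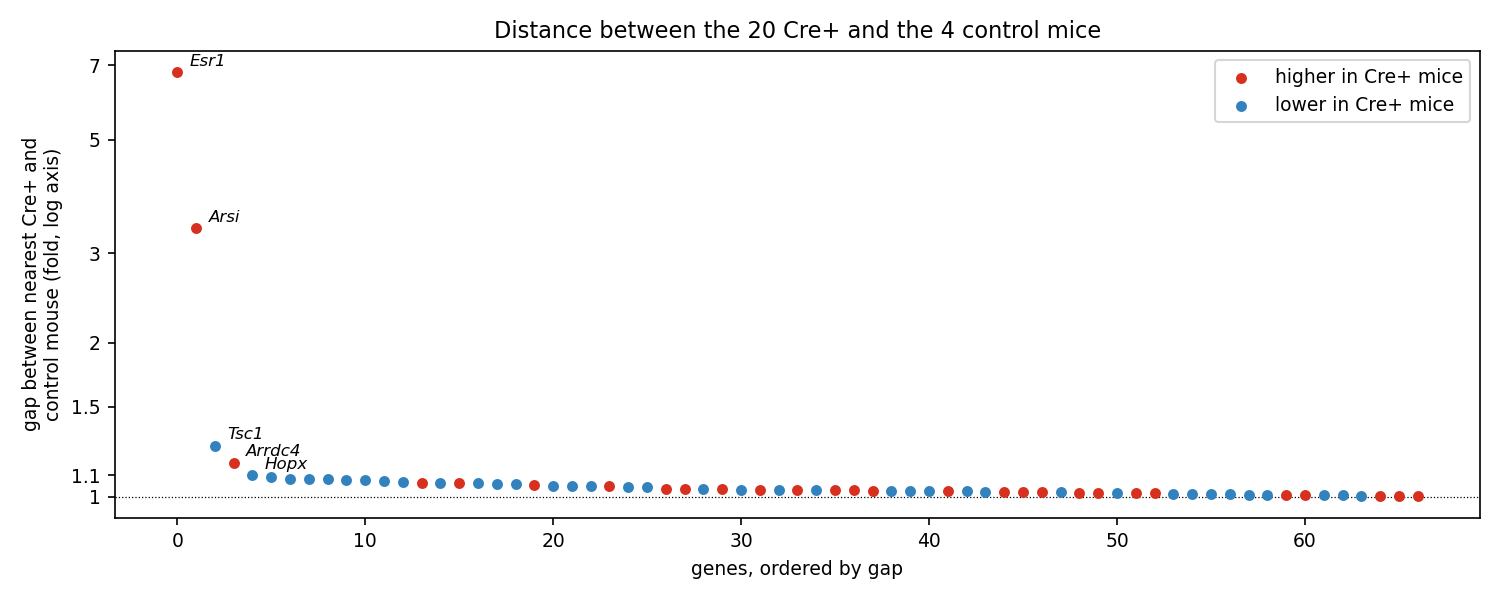
Gap between the nearest Cre-positive and the nearest control mouse for each of the 67 genes, as a fold on a log axis, with the genes ordered by gap. Red points are higher and blue points lower in Cre-positive mice, and Esr1, Arsi, Tsc1, Arrdc4 and Hopx reach at least 1.1-fold.

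Several of the higher genes belong to nutrient and energy metabolism. *Arrdc4*, an alpha-arrestin that curbs glucose uptake, was at 9.88, 11.7, 9.50 and 10.7 CPM in controls, 15.01, 13.8, 13.8 and 14.8 on day 4, 26.8, 31.8, 21.4 and 20.8 on day 13, and 16.1, 16.4, 14.9 and 14.4 CPM with rapamycin. *Dgat2*, which makes triglycerides, was at 55.2, 59.9, 57.0 and 56.3 CPM in controls, 104, 135, 96.6 and 134 on day 13, and 69.2, 72.2, 62.0 and 61.7 CPM with rapamycin. *Gpt2*, a mitochondrial alanine transaminase, was at 76.7, 77.3, 74.7 and 74.7 CPM in controls, 111, 185, 179.7 and 135 on day 13, and 92.7, 86.0, 82.2 and 79.5 CPM with rapamycin. In all 3 genes the 4 day 13 mice were above every day 4 and every rapamycin mouse but overlapped day 8, and the rapamycin mice lay between them and the controls. *Mat2a*, which makes the methyl donor S-adenosylmethionine, followed the same order, with 114 to 125 CPM in controls, 168 to 306 on day 13 and 130.1 to 138 CPM with rapamycin. Rapamycin against day 13 gave -0.71 ± 0.13 for *Arrdc4*, -0.83 ± 0.12 for *Dgat2*, -0.85 ± 0.15 for *Gpt2* and -0.77 ± 0.16 for *Mat2a* (log2 ± SE, 4 of 4 mice below every day 13 mouse, edgeR adjusted p = 0.00366, 0.00109, 0.00276 and 0.00692). All 4 were also called higher on day 13 than on day 4, by 0.82, 0.70, 0.87 and 0.73 on the log2 scale. The other metabolic genes were higher than controls on average by smaller amounts: *Ogdhl*, an oxoglutarate dehydrogenase-like enzyme, by 23.7%, the mitochondrial pyrimidine nucleotide carrier *Slc25a33* by 24.4%, the respiratory complex I assembly factor *Ndufaf4* by 27.6%, the mitochondrial protein *Higd1a* by 19.3% and the nucleotidase *Nt5c3* by 14.8%.

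Another group of higher genes acts on RNA, chromatin and nuclear transport. *Ncbp1*, the large subunit of the nuclear cap-binding complex, was at 54.3, 51.7, 51.3 and 52.7 CPM in controls, 95.2, 112, 80.9 and 82.6 on day 13, and 54.8, 58.4, 57.5 and 54.7 CPM with rapamycin. The rapamycin mice stood just above the highest control, at 54.3 CPM, and far below day 13, a difference of -0.73 ± 0.10 (log2 ± SE, 4 of 4 mice, edgeR adjusted p = 9.02e-04). *Kpna2*, an importin, and *Kdm4a*, a histone demethylase, were lower with rapamycin than on day 13 by -0.59 ± 0.12 and -0.59 ± 0.11 (log2 ± SE, 4 of 4 mice each, edgeR adjusted p = 0.00629 and 0.00326), the second not called without day 13 mouse B (log2 -0.49). *Klf9*, a hormone-responsive transcription factor, rose from 229 to 250.2 CPM on day 4 to 309 to 399.9 CPM on day 13 (log2 0.50 ± 0.09, 4 of 4 mice, edgeR adjusted p = 0.00479), a call lost without day 4 mouse D or day 13 mouse C, the lowest log2 value being 0.41. *Srrm4*, which directs neuronal splicing, was 30.9% above controls, the translation release factor *Gspt1* 11.1% and *Fam98a* 24.3%. *Chfr*, a ubiquitin ligase of the mitotic checkpoint, had the smallest average difference of the higher genes, with 40.8, 41.2, 41.1 and 40.0 CPM in controls and 42.0 to 49.0 CPM over the 20 Tsc1-Cre+ mice.

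Further higher genes act in membranes and their traffic. *Epha10*, a receptor of the ephrin family, was at 50.9, 50.4, 48.9 and 49.2 CPM in controls, 77.5, 89.7, 82.7 and 67.5 on day 4, 95.8, 64.0, 117 and 76.9 on day 13, and 61.2, 55.8, 52.7 and 54.0 CPM with rapamycin. Its day 4 and day 13 mice overlapped, and the rapamycin mice lay below both (log2 -0.68 ± 0.17 against day 13, SE, 4 of 4 mice, edgeR adjusted p = 0.0143). *Lingo3*, a leucine-rich repeat membrane protein, was at 34.9, 37.9, 36.4 and 37.8 CPM in controls, 64.8, 65.5, 70.4 and 64.9 on day 13, and 41.5, 50.7, 40.3 and 40.5 CPM with rapamycin, 1 of these 4 standing nearer to day 13 than its fellows. It was lower with rapamycin by -0.63 ± 0.09 (log2 ± SE, 4 of 4 mice, edgeR adjusted p = 0.00130). *Tmem251*, needed for the sorting of lysosomal enzymes, was at 7.27, 7.74, 7.75 and 8.03 CPM in controls, 15.9, 21.8, 11.7 and 11.3 on day 13 and 9.75, 8.60, 8.94 and 9.14 CPM with rapamycin. Its day 13 mice were above all others of those groups, and rapamycin against day 13 gave -0.75 ± 0.19 (log2 ± SE, 4 of 4 mice, edgeR adjusted p = 0.0142). The syntaxin *Stx3* was the remaining higher gene called with rapamycin, with -0.50 ± 0.11 (log2 ± SE, 4 of 4 mice, edgeR adjusted p = 0.00866), no longer called without day 13 mouse B or rapamycin mouse A, B or D (log2 -0.59 to -0.39 over single omissions). The recycling protein *Ehd3*, the vesicle GTPase *Rab10*, the volume-regulated anion channel subunit *Lrrc8c*, the inositol phosphate kinase *Ippk* and the coiled-coil protein *Ccdc6* averaged 25.9%, 19.7%, 28.6%, 25.5% and 19.8% above controls.

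Promoter sequences were at hand for 55 of the 67 genes, from RefSeq (GRCm38.p6), each covering 250 bases before to 50 after a start site. They were searched on both strands for 5 motifs. CACGTG, the E-box read by the MYC and TFEB families among others, occurred in the promoters of 6 of the 55 genes (10.9%), *Arrdc4*, *Ccdc6*, *Lingo3*, *Ogdhl* and *Slc25a33* of the higher and *Hopx* of the lower, against 8.09% of all 27025 genes in the table. TGACGTCA, the cAMP response element, occurred in that of *Tmem251* alone, against 2.03% of genes. TTGCATCA, a core of C/EBP and ATF sites, was in 0 of the 55 (1.03% of genes), as were the palindromic estrogen response element GGTCANNNTGACC (0.074%) and glucocorticoid response element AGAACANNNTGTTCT (0.0111%). These shares are descriptions, and a match is not a binding site. The 3 promoters printed here belong to members that were called lower with rapamycin than on day 13 and hold a match, in capitals, beginning 193, 91 and 49 bases before the start site. The match of *Tmem251* also lies in the window of another start site, 90 bases before it. *Arrdc4* lies on the minus strand (chr7:68749189-68749488), *Lingo3* on the minus strand (chr10:80843990-80844289) and *Tmem251* on the plus strand (chr12:102743469-102743768).
Arrdc4: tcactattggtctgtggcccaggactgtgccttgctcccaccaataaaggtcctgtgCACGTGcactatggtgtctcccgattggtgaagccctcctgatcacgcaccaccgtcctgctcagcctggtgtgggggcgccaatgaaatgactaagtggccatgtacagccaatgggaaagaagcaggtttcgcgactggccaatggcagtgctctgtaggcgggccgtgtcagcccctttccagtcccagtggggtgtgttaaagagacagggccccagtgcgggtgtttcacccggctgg
Lingo3: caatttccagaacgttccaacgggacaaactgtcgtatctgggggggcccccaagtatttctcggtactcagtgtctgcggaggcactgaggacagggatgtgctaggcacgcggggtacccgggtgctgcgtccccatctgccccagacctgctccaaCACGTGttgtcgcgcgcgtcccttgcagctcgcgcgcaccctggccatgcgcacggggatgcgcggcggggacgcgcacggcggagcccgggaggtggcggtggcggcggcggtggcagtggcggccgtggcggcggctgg
Tmem251: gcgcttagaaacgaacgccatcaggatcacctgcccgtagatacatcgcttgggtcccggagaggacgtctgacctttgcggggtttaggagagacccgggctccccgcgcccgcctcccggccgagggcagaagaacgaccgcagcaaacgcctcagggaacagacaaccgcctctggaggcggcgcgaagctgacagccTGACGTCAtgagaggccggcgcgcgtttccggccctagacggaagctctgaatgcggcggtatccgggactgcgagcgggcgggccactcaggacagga

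Several of the lower genes belong to the cell surface, its surroundings and the cytoskeleton. *Fat4*, a giant cadherin, was at 187, 169.8, 165 and 172 CPM in controls, 151, 161, 159 and 118 on day 4, 63.8, 46.0, 69.5 and 65.2 on day 13, and 126, 138, 142 and 145 CPM with rapamycin. *Cxcl12*, a chemokine, was at 51.6, 49.5, 47.5 and 45.5 CPM in controls, 43.0, 37.5, 42.8 and 43.6 on day 4, 7.59, 6.305, 24.9 and 21.4 on day 13, and 35.9, 36.9, 29.7 and 41.0 CPM with rapamycin. *Psrc1*, a microtubule-binding protein, was at 10.3, 9.67, 9.96 and 10.7 CPM in controls, 8.69, 7.92, 8.65 and 7.32 on day 4, 2.34, 1.95, 5.04 and 2.68 on day 13, and 8.46, 8.01, 6.83 and 7.51 CPM with rapamycin. In all 3 the day 13 mice were below every day 4 and every rapamycin mouse, and in *Cxcl12* and *Psrc1* day 8 mice overlapped them, while day 4 and rapamycin mice stood nearer to the controls without reaching them. From day 4 to day 13 they fell by 1.26, 1.46 and 1.44 on the log2 scale (SE 0.15, 0.41 and 0.27, 4 of 4 mice, edgeR adjusted p = 0.00144, 0.0280 and 0.00683). With rapamycin they were higher than on day 13 by 1.162 ± 0.13, 1.24 ± 0.40 and 1.36 ± 0.27 (log2 ± SE, 4 of 4 mice, edgeR adjusted p = 4.76e-04, 0.0397 and 0.00564). Both calls of *Cxcl12* were lost when single mice were left out, though the log2 differences kept their direction. That against rapamycin was lost without day 13 mouse A or B or any rapamycin mouse (log2 0.98 to 1.61). That against day 4 was lost without any day 4 mouse or day 13 mouse A (log2 -1.84 to -1.20).

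*Cpne5*, a calcium-dependent membrane-binding copine, had the largest average difference of the lower genes, 45.1%. It was at 17.1, 16.03, 16.2 and 15.5 CPM in controls, 11.8, 10.1, 13.9 and 13.3 on day 4, 5.44, 11.1, 4.26 and 6.71 on day 8, 10.6, 4.57, 6.74 and 3.08 on day 13, and 14.5, 12.2, 13.8 and 11.98 CPM with rapamycin. The low mice were spread over days 8 and 13, day 13 mouse A overlapped day 4, and the rapamycin mice were above every day 13 mouse (log2 1.06 ± 0.31, SE, edgeR adjusted p = 0.0267, lost without day 13 mouse B or any rapamycin mouse, log2 0.84 to 1.44). *Lrp4*, a receptor for agrin and Wnt antagonists, was at 104, 109, 102 and 103 CPM in controls, 96.5, 83.6, 83.2 and 95.4 on day 4, 52.2, 45.6, 69.3 and 61.6 on day 13, and 71.6, 69.6, 68.5 and 76.0 CPM with rapamycin. It fell from day 4 to day 13 by 0.63 on the log2 scale (SE 0.13, 4 of 4 mice, edgeR adjusted p = 0.0101), while its rapamycin and day 13 mice overlapped. Of the other surface and matrix genes, the basement membrane protein *Frem2* averaged 32.5%, the netrin *Ntn4* 26.7%, the BMP receptor *Bmpr1b* 25.5%, the MARVEL-domain protein *Cmtm6* 13.8% and the actin-binding *Aif1l* 33.4% below controls, and the day 13 mice of *Frem2* ran from 3.25 to 12.6 CPM.

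A further group of lower genes regulates transcription and signalling. *Nr3c1*, the glucocorticoid receptor, was at 173, 168, 172 and 174 CPM in controls, 126, 133, 135 and 138 on day 4, 106, 93.0, 122 and 123 on day 13, and 139, 128, 129.5 and 145 CPM with rapamycin. Day 13 mice were below every day 4 and rapamycin mouse, but neither difference passed the test (log2 0.27 ± 0.11 for rapamycin against day 13, SE, edgeR adjusted p = 0.0737). *Hopx*, a homeodomain protein without DNA binding known from neural stem cells and astrocytes, was at 22.9, 23.0, 21.9 and 22.1 CPM in controls and 9.78 to 19.9 CPM in the 20 Tsc1-Cre+ mice, the lowest 2 of them on day 13. The transcription factor *Zeb1* averaged 15.1% and the signalling genes *Pde1c* (a calmodulin-dependent phosphodiesterase), *Prkd3* (protein kinase D), *Pld2* (phospholipase D), *Rcan3* (a calcineurin regulator) and *Sash1* (a scaffold) 26.3%, 19.9%, 20.97%, 19.4% and 19.6% below controls. In *Prkd3* the 5 group means of Tsc1-Cre+ mice were alike, 27.1 to 28.6 CPM, against 34.6 CPM in controls. *Nf1*, the Ras inhibitor neurofibromin, *Mapt*, the microtubule protein tau, and *Spag9*, a scaffold of JNK signalling, are abundant and had small average differences of 8.94%, 10.2% and 11.8%. The autophagy genes *Pik3c3* and *Wipi1* averaged 13.8% and 19.6% below controls, and *Neil1*, a DNA repair glycosylase, 17.8%. *Sfxn5*, a mitochondrial carrier, and *Gramd3* averaged 19.9% and 25.7% below controls.

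Other lower genes are scarce or non-coding. *Birc7*, an inhibitor of apoptosis, was at 1.52, 1.54, 1.44 and 1.57 CPM in controls, 1.31, 1.37, 1.37 and 1.20 on day 4, 0.106, 0.144, 0.585 and 0.751 on day 13, and 0.937, 0.920, 1.22 and 1.04 CPM with rapamycin. Day 13 mice were below every day 4 and every rapamycin mouse but overlapped day 8, and the fall from day 4, 1.86 on the log2 scale (SE 0.53, 4 of 4 mice, edgeR adjusted p = 0.0313), was called only with every mouse or without day 13 mouse C or D (log2 -2.45 to -1.50 over single omissions). *Gm10863*, a processed transcript, went the other way with the drug: it was at 2.74, 2.79, 2.77 and 2.81 CPM in controls, 1.76, 1.49, 1.55 and 2.17 on day 4, 2.50, 2.02, 2.31 and 2.35 on day 13, and 1.18, 1.30, 1.159 and 1.52 CPM with rapamycin. Rapamycin mice were below every day 13 mouse and further from the controls (log2 -0.84 ± 0.17, SE, edgeR adjusted p = 0.00591). The carnitine synthesis enzyme *Bbox1*, the ISG15-conjugating enzyme *Ube2l6*, and *6430550D23Rik*, *Gm16070*, *Gm42944*, *1700071M16Rik* and *Gm22486* had control means of 3.40, 2.65, 3.76, 5.24, 6.298, 4.85 and 6.39 CPM and averaged 39.3%, 32.3%, 30.3%, 29.4%, 33.4%, 27.2% and 29.4% less in Tsc1-Cre+ mice. *6430550D23Rik*, *Gm16070* and *Gm42944* were called higher with rapamycin than on day 13 (log2 0.63 ± 0.21, 0.75 ± 0.22 and 0.88 ± 0.30, SE, edgeR adjusted p = 0.0422, 0.0252 and 0.0496, 3, 4 and 3 of 4 mice above every day 13 mouse). The calls of *6430550D23Rik* and *Gm42944* were lost without any mouse of the 8 except day 13 mouse D (log2 0.50 to 0.80 and 0.69 to 1.23), and that of *Gm16070* without day 13 mouse A or rapamycin mouse B, C or D (log2 0.58 to 0.87). *Gm22486*, a small nucleolar RNA, lies in *Ptcd3* on the same strand, *4930402H24Rik*, 13.9% below controls, and *Rcan3* also overlap a gene of their strand, and 20 of the 67 overlap a gene on the opposite strand. Of all 18255 genes, 1323 overlap a gene of their strand and 5251 a gene on the opposite strand, and nothing is read from these counts.

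*Slc1a3*, the glutamate transporter GLAST of astrocytes, was the 1 gene of 8 astrocyte markers among the 67. It was at 538, 486, 469 and 488 CPM in controls, 324, 418, 354.3 and 413 on day 8, 426, 371, 465 and 438 on day 13, and 444, 435, 429 and 431 CPM with rapamycin. The lowest mice were on day 8, and day 13 mouse C came nearest to the lowest control. The summed level of the 8 markers, led by *Slc1a2*, was 6398, 5821, 6047 and 6134 CPM in controls, 5982, 6081, 6202 and 6104 on day 4, 5640.0, 5353, 5579 and 5503 on day 6, 5407, 5611, 5785 and 5418 on day 8, 5395, 5567, 6291 and 6154 on day 13, and 5855, 5818, 5735 and 5715 CPM with rapamycin. On days 6 and 8 these sums were below every control, and in the other groups they overlapped the controls, while 0 of the 7 other markers were called in the pooled test (2 at an unadjusted p under 0.05, and 0 called by DESeq2, against 1.37% of all 27110 genes called in that edgeR test). The part of cell composition in the level of *Slc1a3* was not tested.

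The medians over the higher and over the lower genes were further from the controls on day 13 than on day 4, and nearer to them with rapamycin than on day 13. The median log2 difference of the 28 higher genes was 0.20 on day 4, 0.29 on day 6, 0.40 on day 8, 0.62 on day 13 and 0.17 with rapamycin. For the 39 lower genes it was -0.30, -0.29, -0.40, -0.58 and -0.34. Day 13 was the group furthest from the controls for all 28 higher and for 35 lower genes, and the 4 exceptions were *Slc1a3*, furthest on day 8, and *Gm10863*, *Cmtm6* and *Ube2l6*, furthest with rapamycin. The group means ran in order from day 4 to day 13 in 13 higher and 18 lower genes. Day 13 mice also varied most: the median SD over the higher genes was 14.7% of the mean on day 13 against 3.29% in controls and 5.16% with rapamycin, and over the lower genes 17.3%, 3.87% and 7.08%. By mouse, the median difference of the higher genes was 0.66, 0.80, 0.50 and 0.55 in day 13 mice A to D, and of the lower genes -0.76, -0.75, -0.47 and -0.38, so that mice A and B stood furthest out in both directions. These 2 share a number series, which C and D do not, and had the largest libraries of the group. *Xist* parted them too, at 1.97 and 1.51 CPM in A and B and 795 and 806 CPM in C and D. Series, library size and sex cannot be told apart here.

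**Figure D4:**
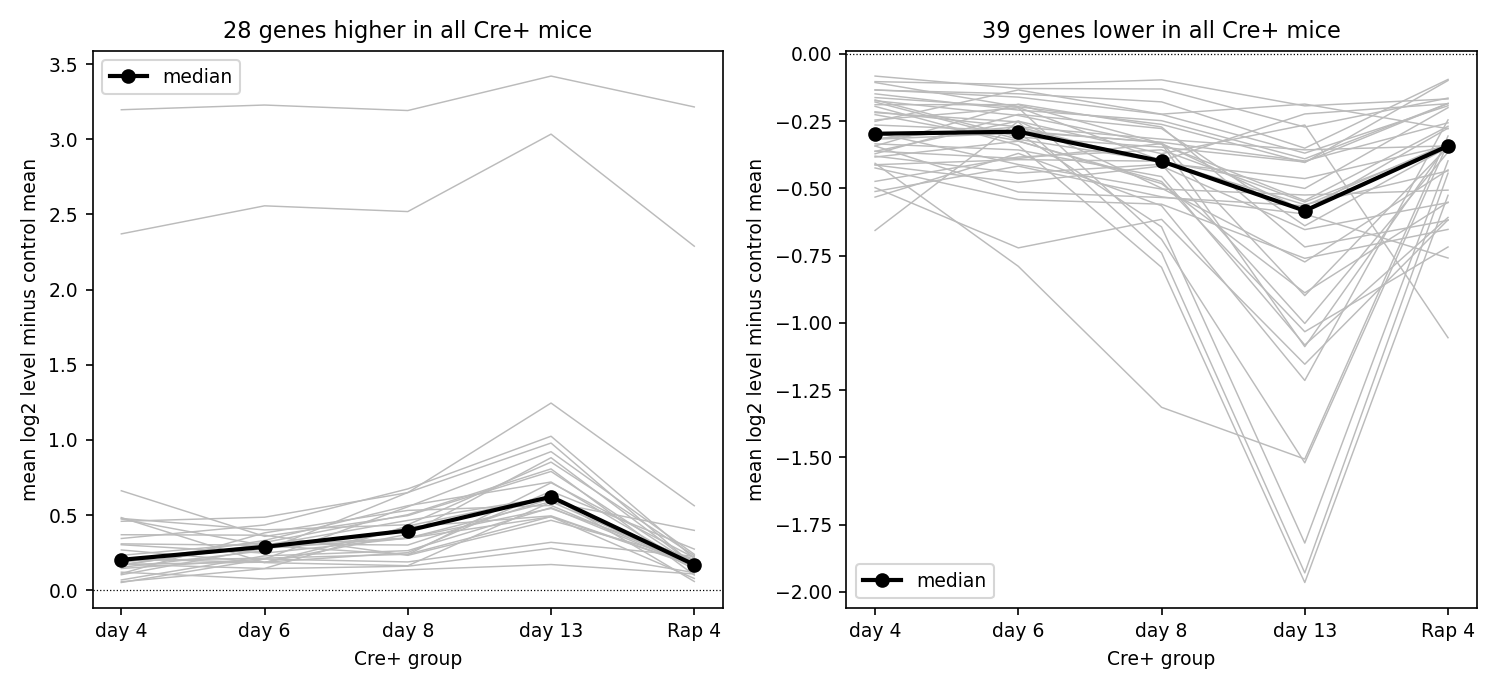
Mean log2 difference from controls of each of the 28 higher and 39 lower genes (grey lines) in the 5 Cre-positive groups, with the median in black. The median is furthest from 0 on day 13 in both panels, at 0.62 and -0.58.

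Tests among the Tsc1-Cre+ groups alone left the controls out. With an F test over the 5 groups, 26 of the 28 higher and 17 of the 39 lower genes differed at an adjusted p under 0.05, against 38.6% of all 26786 genes tested. From day 4 to day 13, 9 of 28 higher genes were called, all upward (*Arsi*, *Arrdc4*, *Dgat2*, *Gpt2*, *Tmem251*, *Ncbp1*, *Kpna2*, *Mat2a* and *Klf9*), and 6 of 39 lower genes, all downward (*Lrp4*, *Gm16070*, *Fat4*, *Psrc1*, *Cxcl12* and *Birc7*), where called means an adjusted p under 0.05 and a log2 difference beyond 0.5. The call of *Gm16070* was lost without any day 4 mouse or day 13 mouse A (log2 -0.84 to -0.54), and that of *Kpna2* without day 13 mouse B (log2 0.49). The background was 14.8% of 25026 genes, 1891 up and 1801 down. The 6 of 39 lower genes lie near that share. The higher genes were abundant, with a median count of 3117 against 809 over all 18255 genes, and the rule favoured genes with tight controls. Nothing is therefore read from their counts of calls beside the shares of all genes. Each of the 67 genes passed the filter on low counts in these tests.

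Rapamycin against day 13 showed the reverse directions. Of the 28 higher genes 12 were called, all lower with rapamycin, and of the 39 lower genes 8 were called, 7 higher with rapamycin and 1, *Gm10863*, lower. The background was 21.1% of 24274 genes, 2412 up and 2711 down, so that the count of lower genes was near it. The rule used the levels of these same mice and took abundant higher genes, so the count of higher genes is not read as an excess. Rapamycin mice kept a median of 29.9% of the day 13 log2 difference in higher genes and 55.8% in lower genes, and 64 of the 67 were nearer to the controls than on day 13. At least 50% was kept by 5 higher genes, *Esr1* (94.0%), *Arsi* (75.4%), *Nt5c3* (70.6%), *Lrrc8c* (68.0%) and *Chfr* (63.4%), and by 23 lower genes, among them *Tsc1* (85.9%). The rule itself bears on these shares, since a gene that rapamycin brought back to the range of the controls could not be taken: without the rapamycin mice it would have given 329 higher and 211 lower genes. Rapamycin mice were also nearer to the controls than day 4 mice, which had no drug, in 17 higher and 10 lower genes.

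**Figure D5:**
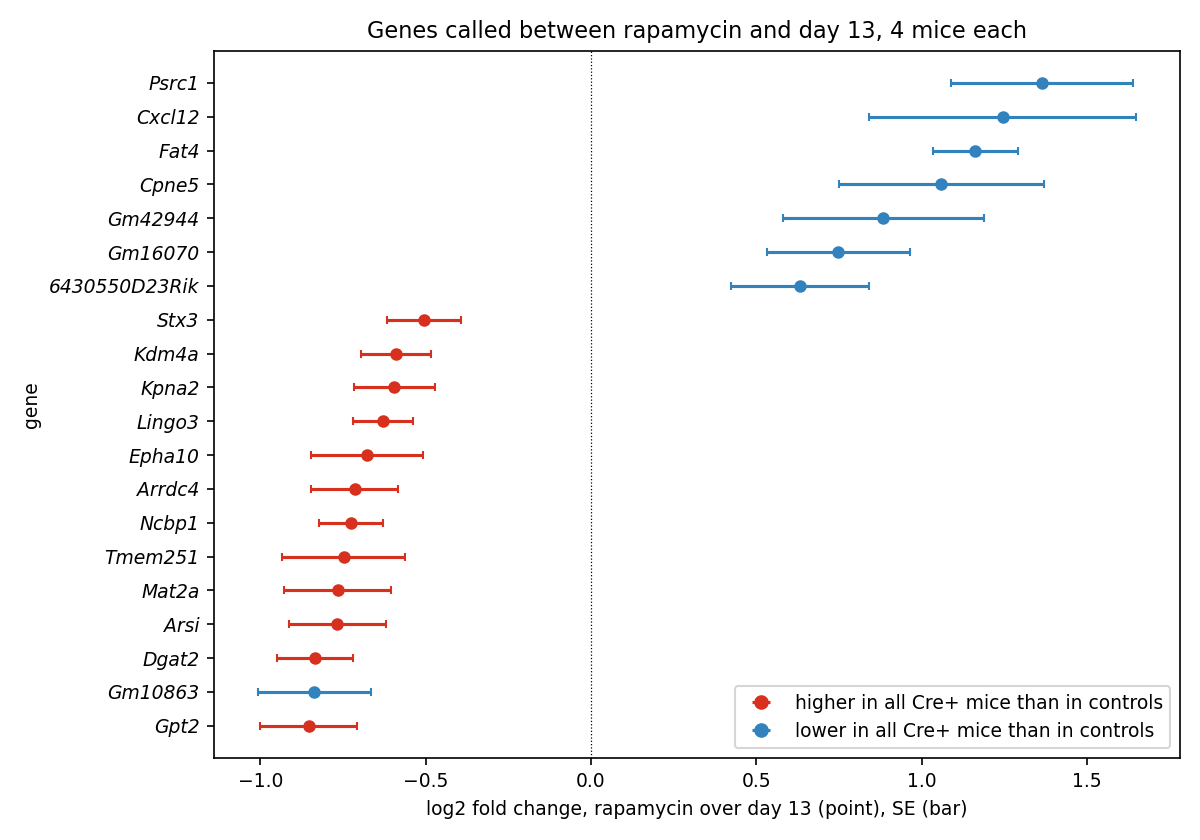
Log2 difference between rapamycin and day 13, with SE, for the 20 of the 67 genes called in edgeR's test. Red genes are higher and blue genes lower in all Cre-positive mice than in controls, and Gm10863 is the 1 blue gene that was lower with rapamycin.

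Since only the day 8 mice share number series with the controls, they were set against the other Tsc1-Cre+ groups. In edgeR's quasi-likelihood test 0 of the 28 and 0 of the 39 genes were called, against 0.698% of 26786 genes. At an unadjusted p under 0.05 there were 8 higher and 2 lower genes, and DESeq2 called 0. Beside so small a share of all genes, the absence of calls is not read as a result. The test also set day 8 against a mean of earlier, later and drug-treated groups. It therefore cannot show whether series bears on the levels. Here and elsewhere counts at an unadjusted p stand without the share of all genes at that p, and nothing is read from them. Within each of the 2 shared series, day 8 mice differed from the controls of that series by medians of 0.36 and 0.39 in the higher and -0.40 and -0.33 in the lower genes (log2), and all 28 and all 39 had the same sign in both, as the rule requires.

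The 67 genes lay on 19 autosomes, with 0 on the X chromosome, which holds 3.02% of the 18255 genes. Chromosome 2 held 8 of them (11.9%, against 7.53% of all genes), all lower, and they were *4930402H24Rik*, *Lrp4*, *6430550D23Rik*, *Ube2l6*, *Aif1l*, *Tsc1*, *Bbox1* and *Birc7*. Only 2 pairs lay within 1 Mb of each other, *Pde1c* and *Nt5c3* (813 kb) and *Gm22486* and *Mat2a* (550.2 kb), the members of each pair differing in direction. Of the 10 other measured genes within 500 kb of *Tsc1*, 0 were called in the pooled edgeR test (4 at an unadjusted p under 0.05, and 0 called by DESeq2, against 1.37% of all 27110 genes called in that edgeR test). Of the 67, 62 were protein coding (92.5%, against 76.3% of all), and their median exon length was 4831 bases against 3848. Per kilobase of exon, *Mapt*, *Klf9*, *Slc1a3* and *Rab10* were among the more abundant of them (47.9, 54.2, 50.8 and 39.3 CPM per kb on average), and *Gm16070*, *Bbox1* and *6430550D23Rik* among the least (0.479, 0.525 and 0.565).

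The rest of the transcriptome was read through the pooled edgeR test of the 5 Tsc1-Cre+ groups against Tsc1-Cre-, in which 372 of 27110 genes (1.37%) were called, 169 up and 203 down. Of these, 17 were among the 67 (5 up, 12 down), a contrast the rule used and from which nothing is read, and 355 were not. The count was 222, 193, 209 and 195 without controls A, B, C and D, and 583 without day 13 mouse D. In the mTORC1 pathway 3 of 38 tested genes other than *Tsc1* were called, all up: *Eif4ebp1*, a translation repressor that mTORC1 phosphorylates (1.57), and the stress-induced mTORC1 inhibitors *Sesn2* (1.20) and *Ddit4* (0.60 on the log2 scale), with 8 at an edgeR adjusted and 15 at an unadjusted p under 0.05. Of all 27110 genes 2014 were at an edgeR adjusted p under 0.05. *Eif4ebp1* and *Sesn2* were called higher on day 13 than on day 4 (log2 2.87 and 2.16). They were called lower with rapamycin than on day 13 (log2 -3.29 and -2.43), and *Ddit4* was called in neither test. Of 20 targets of the stress-response factor ATF4, 12 were called up, led by *Trib3* (2.08), *Chac1* (1.91) and *Slc7a3* (1.89), with a list median of 0.81 against -0.01 over all tested genes, and 0 of them met the rule. Their summed level was 588, 615, 632 and 611 CPM in controls, 620.0, 611, 607 and 631 on day 4 and 537, 517, 567 and 487 CPM with rapamycin, where controls and day 4 overlapped and all 4 rapamycin mice were below them. It was above every control on days 6 and 8, and it was 1423, 2145, 1203 and 1427 CPM on day 13. *Sesn2* is on both lists. Of 26 interferon-response genes 3 were called down, *Gbp4* (-1.08), *Gbp9* (-0.55) and *Rsad2* (-0.60), with 15 at an unadjusted p under 0.05 and a list median of -0.30. The mean summed level of this list was 111 CPM in controls, 111 on day 8 and 110 on day 13. It was 94.7 on day 4, 99.4 on day 6 and 88.8 CPM with rapamycin. Of 20 activity-induced genes 1, *Fosl2*, was called up (0.65), and their summed level was 2374, 2211, 2844 and 644 CPM in the day 13 mice, against 611 to 1037 CPM in all other mice, mouse D standing apart from its group.

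Markers of cell types were mostly not called. Beside the astrocyte list, these were 0 of 9 pyramidal, 1 of 8 granule cell (*Plk5*, down, -1.52), 0 of 9 interneuron, 0 of 9 microglial, 1 of 8 oligodendrocyte (*Opalin*, down, -0.61), 0 of 6 oligodendrocyte precursor, 0 of 7 endothelial, 0 of 9 choroid plexus, 0 of 5 ependymal and 0 of 8 meningeal markers, and 0 of 5 sex-linked genes. At an unadjusted p under 0.05 in edgeR's test the lists with 0 calls had, in that order, 1, 0, 4, 1, 0, 0, 1, 1 and 0 genes, and DESeq2 called 0 in each. The granule cell list had 2 and the oligodendrocyte list 6 of 8 at that p, the latter with a median log2 difference of -0.33 against -0.01 over all tested genes. The summed level of the oligodendrocyte markers, led by *Mbp*, was 3042, 4648, 3851 and 4751 CPM in controls, 3856, 3437, 3844 and 3710.0 on day 4, 3123, 3260.0, 3245 and 3435 on day 6, 2806, 2995, 3140.0 and 3252 on day 8, 3445, 2405, 3425 and 4720.0 on day 13 and 2620.0, 2638, 2821 and 3559 CPM with rapamycin, each group overlapping the controls. The summed level of the granule cell markers, led by *Rfx3*, was 747, 837, 762 and 805 CPM in controls, 898, 877, 824 and 669 on day 4, 771, 688, 757 and 752 on day 6, 588, 499, 672 and 662 on day 8, 529, 459, 602 and 618 on day 13 and 802, 866, 747 and 924 CPM with rapamycin, so that all day 8 and day 13 mice were below every control and the other groups overlapped them. That of the microglial markers, led by *Csf1r*, was 328, 301, 274 and 302 CPM in controls, 259, 250.5, 237 and 289 on day 4, 259, 259, 245 and 259.9 on day 6, 287, 257, 294 and 251 on day 8, 275, 396, 319 and 292 on day 13 and 224, 233, 205 and 214 CPM with rapamycin, with all day 6 and rapamycin mice below every control. The sums of the oligodendrocyte precursor markers (day 8 and rapamycin) and of the endothelial markers (day 6 and rapamycin) were also below every control. The part of cell composition in the levels of the 67 genes was not tested. Of 5 blood markers 4 were called down in the pooled test, the haemoglobin genes *Hba-a1* (-0.68), *Hba-a2* (-0.69), *Hbb-bs* (-0.77) and *Hbb-bt* (-0.69). The summed level of the 5, led by *Hbb-bs*, was 60.5, 59.2, 76.0 and 63.8 CPM in controls, 45.6, 43.7, 35.7 and 36.5 on day 4 and 35.0, 43.5, 40.0 and 46.5 on day 6. It was 32.3, 33.7, 55.1 and 67.7 on day 8, 34.1, 31.6, 48.3 and 34.9 on day 13 and 52.1, 40.2, 38.9 and 44.4 CPM with rapamycin. All but 1 day 8 mouse were below the lowest control. That mouse, D, shares a number series with controls C and D and overlapped them. In the groups other than day 8, series and genotype cannot be told apart. The part of residual blood in the levels of the 67 genes was not tested. Choroid plexus markers, led by *Ttr*, varied between 43.0 and 1750 CPM within and across groups, with control mouse B the highest.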

How the data were processed

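The authors extracted total RNA from the hippocampus of 24 mice (6 groups of 4), sequenced stranded, ribosomal RNA-depleted libraries in read pairs, trimmed reads with cutadapt (1.16.5), aligned them to GRCm38 with STAR (2.7.2b) and counted them per gene with featureCounts (1.6.4) against GENCODE M24. The deposited values are raw counts, 1 file per mouse, for 55385 gene identifiers, of which 55144 were found in the GENCODE M21 annotation used here for names and positions, and 44657 had a count in any mouse. Whether the counting took strand and multiply aligned reads into account is not stated.

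Counts were scaled by library total and the trimmed mean of M values (TMM, edgeR 4.0.16, R 4.3.3) to CPM, and log2 levels were taken after adding 0.1 CPM. Scaling by library totals alone shifted the median of all genes on day 13 by -0.112 (log2) relative to TMM. Group differences were tested with edgeR's quasi-likelihood tests on genes kept by filterByExpr, with Benjamini-Hochberg adjustment over all genes tested. A call needed an adjusted p under 0.05 with a log2 difference beyond 0.5 in either direction, and in the F test over the 5 Tsc1-Cre+ groups at an adjusted p under 0.05. The tests were checked on simulated counts with an equal spread in all groups. Since day 13 mice varied most in the real data, that check does not cover the unequal spread of the contrasts with day 13. Contrasts were rapamycin against day 13, day 13 against day 4, day 8 against the mean of the other Tsc1-Cre+ groups, and the mean of the 5 Tsc1-Cre+ groups against Tsc1-Cre-. The last was read for genes outside the 67 only, and its calls among the 67 are given as a count. Library totals ran from 28208561 to 126435936 counts, and counting error is smallest for abundant genes.

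Members, gene lists and tests were chosen with earlier results of these data known. Genes given by name were the 10 highest and 10 lowest by mean log2 difference, those within 1 Mb of another member, *Tsc1* or *Camk2a*, those on a gene list, the 3 called members with the largest rise and the 3 with the largest fall in rapamycin against day 13, the 2 nearest each threshold on either side, and *Tsc1*, *Camk2a* and *Esr1*. All others, and the grouping by role, were chosen after their values were seen. Alternatives were other scalings, filters and levels for the rule, thinning to the smallest library, DESeq2 (1.42.0), no minimum fold change, the replicate letter as a block, and leaving out each mouse. Nothing was left out of the counts used, and 1 of the 67 genes is not reported by name here.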

Additional observations from a re-analysis of the deposited data

Results flagged for a closer look

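For 30 named genes, each of the 6 groups of 4 mice was examined for a mouse far from the other 3, which chance marks in about 1 in 20 groups. Of 180 groups, 10 (5.56%) had such a mouse, 3 of them on day 13 and 0 among the controls. Among the higher genes, *Arsi* was at 10.7 CPM in day 6 mouse B (others 9.71 to 9.85) and at 10.8 CPM in day 13 mouse D (others 15.1 to 15.3). *Lingo3* was at 70.4 CPM in day 13 mouse C (others 64.8 to 65.5) and at 50.7 CPM in rapamycin mouse B (others 40.3 to 41.5). *Kpna2* was at 12.7 CPM in day 4 mouse D (others 11.92 to 11.96), and *Nt5c3* at 33.1 CPM in day 13 mouse D (others 27.8 to 28.4). Among the lower genes, *Frem2* was at 9.71 CPM in rapamycin mouse A (others 10.4 to 10.5), *Cxcl12* at 37.5 CPM in day 4 mouse B (others 42.8 to 43.6), and *Gm42944* at 3.79 CPM in day 4 mouse C (others 4.47 to 4.54) and at 4.53 CPM in rapamycin mouse C (others 5.48 to 5.59).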

How the results depend on the processing

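The 28 higher and 39 lower genes became 21 and 70 with library totals alone as the scale (17 and 38 shared), 30 and 35 with DESeq2 size factors (27 and 35 shared), 34 and 38 with TMM over filtered genes (28 and 36 shared), 26 and 35 after thinning to the smallest library (19 and 25 shared), and 28 and 41, 28 and 30, or 29 and 43 with a mean of at least 0.5 CPM, of at least 5 CPM, or no minimum. A gap of at least 1.1-fold left 3 and 2. Without the rapamycin group the rule gave 329 and 211, and with day 8 as the only Tsc1-Cre+ group 2579 and 1980, since fewer mice make it easier to meet. Leaving out each mouse gave 28 to 62 and 39 to 95, all 67 among them each time. The cause of the change with library totals was not tested. No level turned sign under another scale, and 22 (library totals) and 2 (DESeq2 size factors) of the 67 moved by over 1 SD of the controls.

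Of the 67 genes, 43 differed among Tsc1-Cre+ groups (37 to 47 leaving out each mouse, 43 with DESeq2, 40 without a filter). Rapamycin against day 13 had 20 called (14 to 22, 22 with DESeq2, 32 with no minimum fold change), 13 of them under every omission. Day 13 against day 4 had 15 (11 to 19, 19 with DESeq2, 21 in a fit of all 24 mice, 29 with no minimum fold change), 9 under every omission. Removing the minimum adds genes by construction. Day 8 against the others had 0 under each alternative run, 0 to 0 leaving out each mouse. The pooled test called 372 genes (193 to 583, 375 with DESeq2, 333 without a filter, 2014 with no minimum fold change). Of the 372, 274 were shared with DESeq2 and 297 with the test without a filter. With the replicate letter as a block the counts were 43, 20 (19 shared), 15 (14 shared), 0 and 349. Residuals of mice of 1 letter did not pair between groups: over 60 pairs their correlation had a median of 0.00548 (-0.454 to 0.316). Of the fold changes of single members, 1753 kept their direction and side of the threshold, 65 passed it, 58 no longer did, and 0 turned. Depth limits the scarcest genes: *Birc7* at 1.047 and *Ube2l6* at 1.92 CPM.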
